A study of Mus musculus with 6 samples.

Results

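The miRNAs described here are mmu-miR-126-3p and mmu-miR-126-5p, the opposite strands of a single precursor, and mmu-miR-221 and mmu-miR-222, which come from neighbouring precursors. They were chosen by name, and all 4 have a row among the 440 mature miRNAs of the deposited table of mouse heart small RNA. Per the labels, the series holds 3 infarcted hearts, sampled at the border zone of the infarct, and 3 sham-operated hearts, sampled at the same region, from C57BL/6J mice 12 weeks old, 2 weeks after surgery. C57BL/6J is an inbred laboratory strain, and no allele or drug is named for either group. The 6 value columns of the table carry the codes 12LR, 7LR, 8R, 2L, 5O and 11R, which match no sample label. Each column was therefore treated as 1 of the 6 heart libraries, none was assigned to infarcted or sham hearts, and the comparison of infarcted with sham hearts was not made. Every value below stands for a single library, and the spread over the 6 mixes the variation between mice with whatever difference the surgery made.

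miR-126 is encoded in an intron of Egfl7, a gene for a secreted protein of endothelial cells, and is the best known miRNA of the vessel lining. In mouse and zebrafish its 3p strand is known to repress Spred1 and Pik3r2, which restrain signalling from the VEGF receptor, and in human endothelial cells it represses the adhesion molecule VCAM1. The 5p strand, once named miR-126*, is known in mouse endothelium to repress Dlk1, an inhibitor of Notch signalling. miR-221 and miR-222 are transcribed together, and in human endothelial cells they repress the receptor KIT. They also repress the cell cycle inhibitor p27 in many human cells, and they are expressed in vascular smooth muscle, so they mark endothelium less exclusively than miR-126.

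The mature sequences show which members can share targets, since the seed, bases 2 to 8, is the main determinant of target choice. They are RefSeq sequences on mouse assembly GRCm38.p6, written 5′ to 3′ with the seed in capitals. RefSeq entries were matched for 3 of the 4 members, with miR-126-3p taken as miR-126a-3p, and miR-221 and miR-222 as the 3p strands of their hairpins. No entry was matched for miR-126-5p.
miR-126-3p: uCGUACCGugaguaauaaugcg
miR-221: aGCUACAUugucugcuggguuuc
miR-222: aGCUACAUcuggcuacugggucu
The first 8 bases of miR-221 and miR-222 are identical, which includes the whole seed, and 11 of their 23 positions match without gaps. In RefSeq, the same seed was found in 1 further mouse miRNA, miR-1928, which has no row in the table. The seed of miR-126-3p was found in no other mouse miRNA of the RefSeq table.

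On GRCm38.p6, the Mir126a hairpin lies at chr2:26591357-26591429 on the plus strand. The deposited table does not name its own build. In the GENCODE M21 annotation this position is inside Egfl7, also on the plus strand, and it was intronic in all 7 protein-coding Egfl7 transcripts that span it. The Mir221 hairpin lies at chrX:19146294-19146388 and the Mir222 hairpin at chrX:19146893-19146971, both on the minus strand, with 504 bases between them. The Mir221 hairpin is printed because both of its strands are measured below. Its capitals mark miR-221-5p, the asterisk form miR-221* of the table, and then miR-221-3p.
Mir221: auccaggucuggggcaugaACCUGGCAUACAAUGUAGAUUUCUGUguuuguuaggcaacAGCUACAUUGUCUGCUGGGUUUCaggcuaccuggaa

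The deposited values are normalised counts, scaled so that the upper quartile of each library over the listed miRNAs is 100, and the median miRNA of a library was between 7.77 and 10.3. In each library all values were whole multiples of a single step, within 0.001 of a whole number, and the step was taken as the value of 1 read. The read numbers and counting intervals below rest on this. The listed miRNAs held between 9272782 and 21714533 reads per library. The most abundant miRNA was miR-22 in 4 of the libraries and miR-143 in the other two, at 18.5% to 30.7% of the listed reads. All 6 cardiomyocyte miRNAs were listed, with a summed value of 12595 to 63055, of which miR-133a alone made up 11093 to 60893. The smooth muscle miRNAs miR-143 and miR-145 summed to more, 92079 to 226859. Nearly all of this was miR-143, at 92010 to 226755, while miR-145 was at 68.4 to 173. The 5 epithelial miRNAs summed to 7.88 to 16.9, and the liver miRNA miR-122 stayed between 0.224 and 3.20. The 6 leukocyte miRNAs summed to 1449 to 3164, and the neuron miRNA miR-9 was at 8.42 to 29.6. The cardiomyocyte sum was 50947 to 63055 in 12LR, 7LR and 8R, against 12595 to 15546.5 in 2L, 5O and 11R. The 3 fibroblast miRNAs, mostly miR-21, summed to 2357 to 5137 in the former and 14507 to 23268 in the latter. Whether this difference played a part in the values below was not tested. The endothelial list consists of the 4 members themselves, so it gives no separate check of endothelial content. In bulk tissue, fewer cells of a type and less of an miRNA per cell cannot be told apart.

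Among the members the 2 strands of miR-126 were abundant, miR-221 was intermediate and miR-222 was scarce. miR-126-5p was at 14089 normalised counts in library 12LR, 10665 in 7LR, 10524 in 8R, 9229 in 2L, 9758 in 5O and 5270 in 11R. Library 11R was low and 12LR high, and the other libraries lay close together. miR-126-5p ranked between 11 and 18 of the 440 miRNAs and made up 1.06% to 1.58% of the listed reads. By its median of 10141 it stood between let-7i, at 10436, and miR-21, at 9334.

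miR-126-3p was lower in every library than the opposite strand. Its values were 2609 in 12LR, 5093 in 7LR, 5191 in 8R, 2445 in 2L, 2469 in 5O and 3647 in 11R. Libraries 7LR and 8R were high, 12LR, 2L and 5O were low, and 11R lay between them. Its rank was between 18 and 26, its share of the listed reads between 0.266% and 0.735%, and its median of 3128 stood between miR-151-3p at 3566 and miR-16 at 2623. The lowest miR-126-5p value, 5270, and the highest miR-126-3p value, 5191, come from different libraries and nearly meet, but the 2 ranges do not overlap.

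miR-221, the major product of its cluster in these libraries, was at 223 normalised counts in 12LR, 230 in 7LR, 307 in 8R, 264 in 2L, 201 in 5O and 188 in 11R. The highest library exceeded the lowest by 1.63-fold, the narrowest range of the 4 members on the deposited scale. As shares of the listed reads the range of miR-221 was 1.98-fold, and that of miR-126-5p was narrower. miR-221 ranked between 73 and 88, and its median of 227 was 13.8-fold below the median of miR-126-3p. miR-744 at 232 and miR-320 at 220 were its neighbours by median.

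miR-222 was at 23.9 normalised counts in 12LR, 23.1 in 7LR, 13.5 in 8R, 27.7 in 2L, 27.1 in 5O and 17.3 in 11R, so library 8R, the highest for miR-221, was the lowest for miR-222. These values rest on 274 to 966 reads per library. The exact 95% Poisson interval in 8R was 12.1 to 14.9, below the intervals of the other 5 libraries, the nearest of which was 15.9 to 18.8 in 11R. This interval covers counting error only. miR-222 ranked between 167 and 193, and by median stood between miR-425* and miR-431. The 5p strand of miR-126 was thus the highest of the 4 in all 6 libraries, followed by the 3p strand, miR-221 and miR-222, and no ranges of neighbours in this order overlapped.

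**Figure D1:**
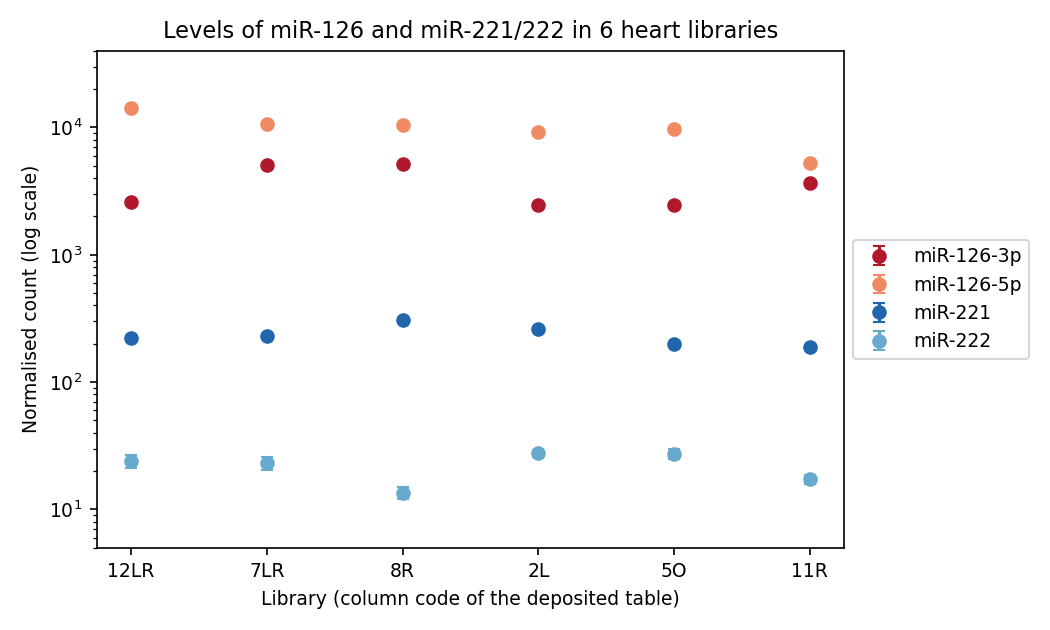
Normalised counts of the 4 members (log axis) in each of the 6 libraries (horizontal axis, column codes of the deposited table); points are single libraries and bars are exact 95% Poisson intervals, which cover counting error only. The 4 miRNAs keep the same order in every library, and the 2 strands of miR-126 come closest in 11R, at 5270 for miR-126-5p and 3647 for miR-126-3p.

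The 2 strands of miR-126 come from the same hairpin, and their ratio within a library does not depend on how that library was scaled. The reads of miR-126-3p per read of miR-126-5p numbered 0.185 in 12LR, 0.478 in 7LR, 0.493 in 8R, 0.265 in 2L, 0.253 in 5O and 0.692 in 11R. The 5p strand was thus the more abundant in 6 of 6 libraries, by 1.45-fold in 11R to 5.40-fold in 12LR, with a median of 2.93-fold. As a share of all miR-126 reads, the 3p strand was 15.6% in 12LR (exact 95% binomial interval 15.5% to 15.8%) and 40.9% in 11R (40.7% to 41.1%). None of the 6 intervals of this share overlapped, and the closest were those of 7LR, at 32.1% to 32.5%, and 8R, at 32.9% to 33.2%. The libraries thus differed in strand ratio by far more than counting error, over a 3.74-fold range.

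For comparison, 120 names in the table have 2 listed strands, and 38 of these precursors, miR-126 included, had a median value of at least 10 for each strand and no zero. Among the other 37, the more abundant strand exceeded the less abundant by a median of 13.7-fold, with quartiles of 2.64 and 63.4. A more even ratio than that of miR-126 was found for 12 of them and a more uneven one for 25. In 35 of the 37 the same strand was higher in all 6 libraries, as it was for miR-126. The log2 strand ratio of miR-126 had an SD of 0.73 over the libraries, against a median SD of 0.52 for the others, of which 8 were more variable and 29 less. With a minimum of 1 in place of 10, a choice made after the values were seen, 40 of 98 others were more variable than miR-126 and 58 less. With a minimum of 100, likewise not set beforehand, 1 of 8 others was more variable and 7 were less, and their median SD was 0.42.

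**Figure D2:**
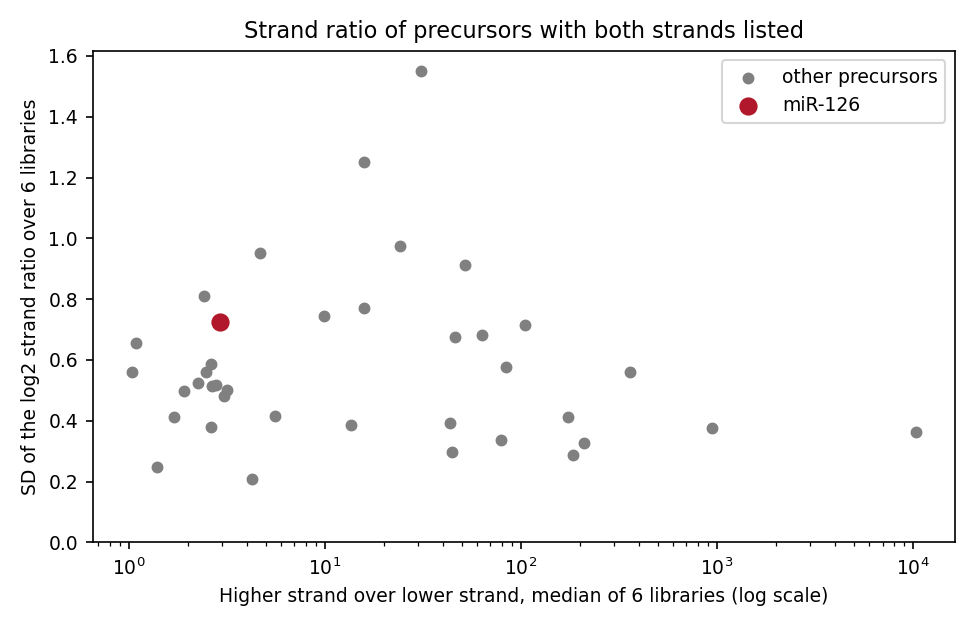
Each point is a precursor with both strands listed at a median of at least 10; the horizontal axis (log scale) is the median over 6 libraries of the higher strand divided by the lower, and the vertical axis is the SD of the log2 ratio over the same libraries. miR-126, at 2.93-fold and an SD of 0.73, lies among the more even and more variable precursors.

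miR-221 and miR-222 share a seed and a transcript, and their ratio is equally free of library scaling. It was 9.35 in 12LR, 9.97 in 7LR, 22.8 in 8R, 9.50 in 2L, 7.40 in 5O and 10.9 in 11R. Library 8R was set apart from the other 5, which lay between 7.40 and 10.9. The exact 95% interval was 20.5 to 25.4 in 8R, while the highest bound among the others was 11.9, in 11R. Since miR-221 and miR-222 have the same seed, their reads can be added as reads with that seed, and miR-221 made up 88.1% to 95.8% of the sum. This is a share of reads, not of molecules. The 2 strands of miR-126 together exceeded miR-221 and miR-222 together by 40.1-fold in 2L to 67.5-fold in 12LR.

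**Figure D3:**
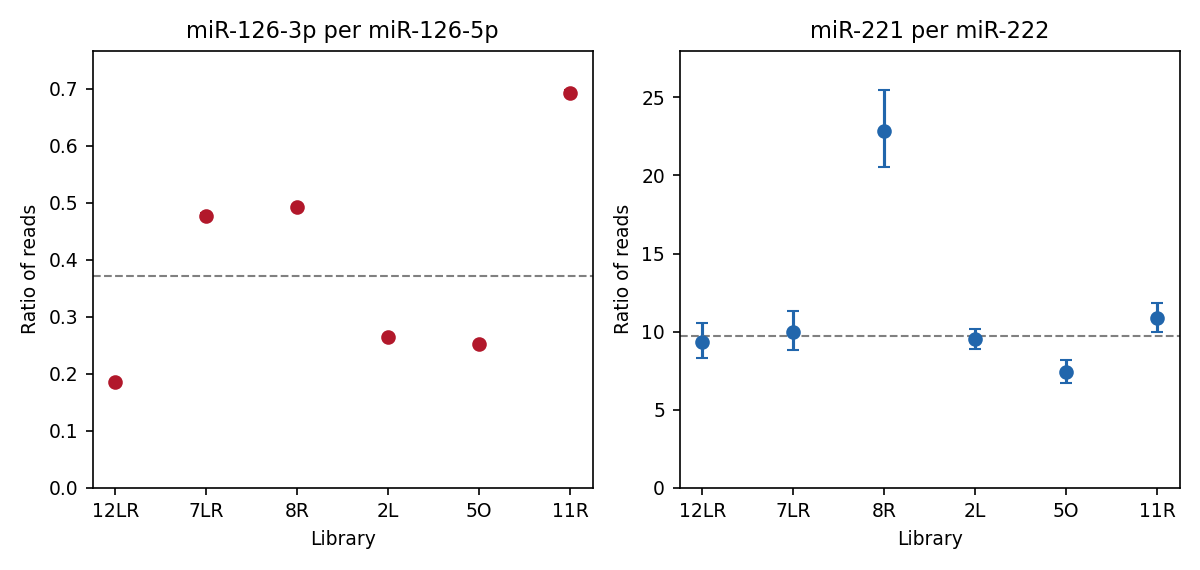
Ratio of miR-126-3p to miR-126-5p (left) and of miR-221 to miR-222 (right) in each of the 6 libraries, with exact 95% binomial intervals as bars (smaller than the points on the left) and the median of the 6 as a dashed line. On the left the ratio runs from 0.185 in 12LR to 0.692 in 11R; on the right 8R, at 22.8, lies above the other libraries.

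The opposite strands of the miR-221 and miR-222 hairpins were also listed. miR-221* had between 7.14 and 14.8 normalised counts, with a median of 9.07, so miR-221 exceeded it by 13.6-fold in 5O to 43.0-fold in 8R. miR-222* was scarce, at 1.53 normalised counts in 12LR and 3.02 to 3.59 in the other libraries, which correspond to 20 to 106 reads. The ratio of miR-222 to miR-222* ran from 3.75 in 8R (exact 95% interval 2.99 to 4.75) to 15.7 in 12LR (9.96 to 26.0). Library 8R, where miR-222 was lowest, had the highest miR-222* value, 3.59. The low value of 8R was thus seen for the major strand of the hairpin but not for the minor one.

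The spread of each member over the libraries was set beside the 40 miRNAs nearest to it in median level. On the scale of log2(value + 1), the SD over the 6 libraries was 0.51 for miR-126-3p, 0.47 for miR-126-5p, 0.26 for miR-221 and 0.39 for miR-222, and the median over all 440 rows was 0.52. Of its 40 neighbours in level, 39 were more variable than miR-221 and 1 was less. Among the neighbours of miR-126-3p 33 were more variable, and for miR-126-5p and miR-222 it was 32 each. On the deposited scale, all 4 members were thus less variable than most of the 40 miRNAs nearest to them in level. The 40 neighbours of the 2 strands of miR-126 overlap, since both lie near the top of the table. With few rows above these strands, some of their neighbours lie far from them in level.

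The spread of miR-126-5p differed with the scaling and with the libraries included. Its SD of 0.47 as deposited became 0.35 with median-of-ratios scaling, 0.20 as a share of the listed reads, and 0.24 as deposited without 11R. The sum of all deposited values was lowest in 11R, at 496522, and highest in 12LR, at 982696, the same libraries in which miR-126-5p was lowest and highest. As a share of the listed reads, miR-126-5p varied by 1.48-fold between libraries, against 2.67-fold on the deposited scale, and 2L took the place of 12LR as its highest library. The other members did not become less variable on that scale. The fold range over libraries was 2.77 for miR-126-3p, 1.98 for miR-221 and 2.86 for miR-222 as shares, against 2.12, 1.63 and 2.06 as deposited. As a share, miR-126-3p was highest in 11R and lowest in 12LR, whereas on the deposited scale it was highest in 8R and lowest in 2L.

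Covariation over the 6 libraries was computed for the 6 pairs of members on log2(value + 1), with two-sided exact permutation tests over all 720 pairings and Benjamini-Hochberg adjustment over the 6 pairs. None of the pairs passed an adjusted p of 0.05. The 2 strands of miR-126 had a Pearson r of -0.09 (exact permutation p = 0.935, adjusted p = 0.935) and a Spearman rho of 0.31 (exact permutation p = 0.564, adjusted p = 0.919). Without 7LR and 8R, the libraries farthest from the median of miR-126-3p, r was -0.81. The value near 0 depended on the scaling, since r was -0.70 with the members as shares of the listed reads and -0.40 with median-of-ratios scaling. miR-221 and miR-222 had an r of -0.36 (exact permutation p = 0.492, adjusted p = 0.723) and a rho of -0.09 (exact permutation p = 0.919, adjusted p = 0.919), and r was 0.16 without 8R and 11R. Neither the strands of one hairpin nor the products of one cluster thus moved together detectably in 6 libraries.

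The largest coefficient was that of miR-126-3p with miR-222, which were ordered almost in reverse. Spearman's coefficient was -0.94 (exact permutation p = 0.0167, adjusted p = 0.1) and r was -0.74 (exact permutation p = 0.0972, adjusted p = 0.583). Without 7LR and 8R, r over the remaining 4 was -0.99. With a single library left out, r ran from -0.99 without 7LR to -0.55 without 8R. With the members taken as shares of the listed reads r was -0.17, and with the libraries scaled by median of ratios, a choice made after the values were seen, it was -0.83 (exact permutation test, adjusted p = 0.0917). The remaining pairs were weaker. miR-126-3p with miR-221 had an r of 0.36 and a rho of 0.26 (exact permutation p = 0.451 and 0.658, adjusted p = 0.723 and 0.919), and r was -0.67 without 7LR and 8R. For miR-126-5p with miR-221, r was 0.44 and rho 0.31 (exact permutation p = 0.372 and 0.564, adjusted p = 0.723 and 0.919), and r was 0.18 without 11R and 12LR. For miR-126-5p with miR-222, r was 0.28 and rho -0.09 (exact permutation p = 0.603 and 0.919, adjusted p = 0.723 and 0.919), and r was -0.67 without the same libraries. These coefficients pool 3 infarcted and 3 sham hearts that are not marked in the table, so a relation within either group was not tested.

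**Figure D4:**
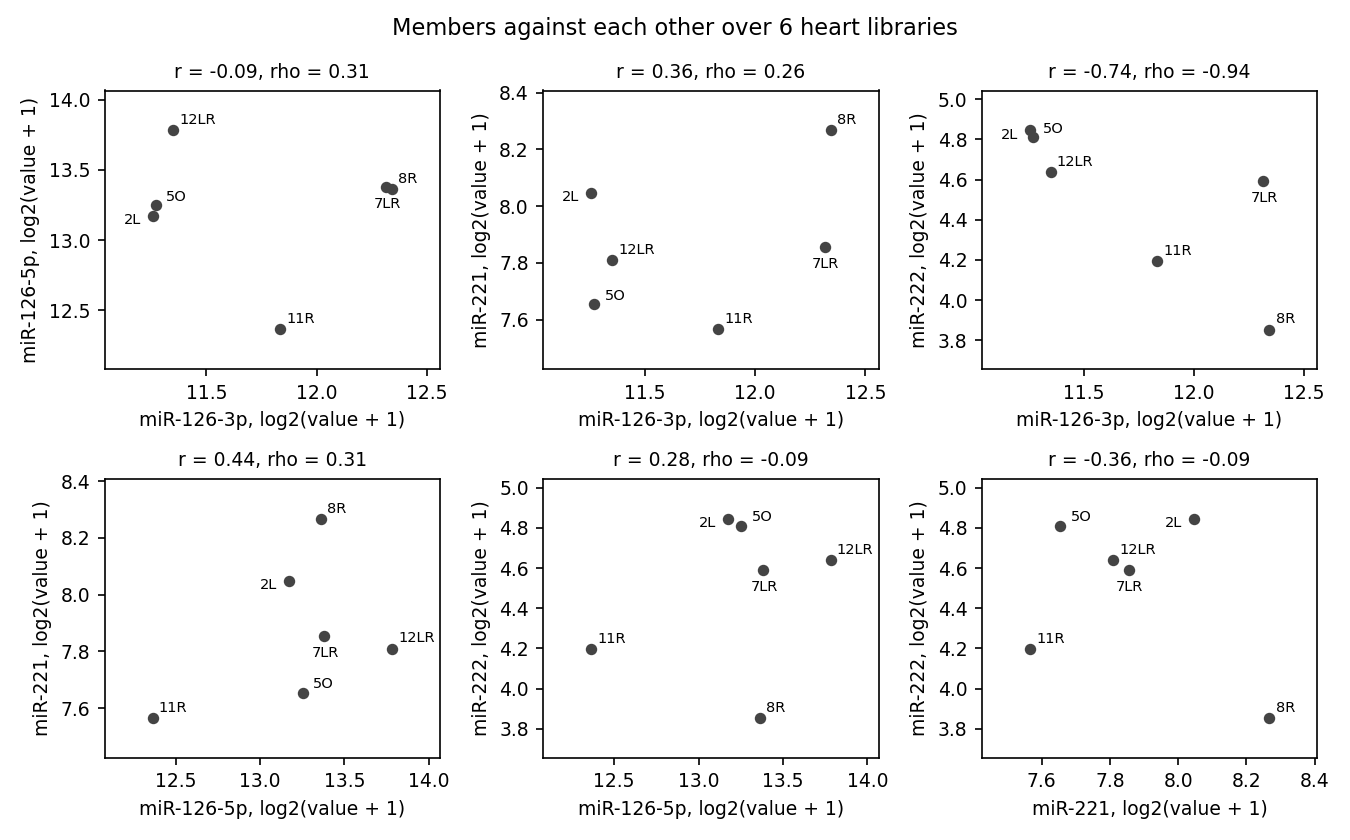
Each panel plots a pair of members against each other on log2(value + 1), with a point for each of the 6 libraries and its column code beside it; r is Pearson's and rho Spearman's coefficient. The panel of miR-126-3p and miR-222 has the clearest inverse order, with a rho of -0.94, and 11R is the low library in each panel with miR-126-5p.

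The miRNAs whose pattern over the 6 libraries was most like that of each member were listed by Pearson's r among the 210 other miRNAs with a median of at least 10. For miR-126-3p these were miR-674* (r = 0.97), miR-194 (r = 0.97) and miR-144* (r = 0.96). miR-144* is the opposite strand of the erythroid miR-144, and the summed value of the erythroid miRNAs miR-451 and miR-144 was 476 in 12LR, 1055 in 7LR, 1125 in 8R, 233 in 2L, 230 in 5O and 399 in 11R. Whether blood content played a part in the miR-126-3p values was not tested. For miR-126-5p the most alike were miR-148b (r = 0.99), miR-186 (r = 0.98) and miR-125b-5p (r = 0.98). An r above 0.9 was reached by 23 of the 210 miRNAs, against 6 for miR-126-3p and 0 for each of miR-221 and miR-222. The median r over the 210 was 0.38 for miR-126-5p, -0.02 for miR-126-3p, 0.17 for miR-221 and 0.04 for miR-222. With values as shares of the listed reads, 1 of the 3 most alike to miR-126-5p remained. The count of 23 was taken on the deposited scale only. miR-221 was most like miR-450b-5p (r = 0.89), the leukocyte miRNA miR-155 (r = 0.84) and miR-322 (r = 0.83). miR-450b-5p and miR-322 come from one cluster on the X chromosome. The 6 leukocyte miRNAs summed to 2717 in 12LR, 2019 in 7LR and 1927 in 8R. In 2L, 5O and 11R they summed to 3115, 3164 and 1449. Their sum was thus highest in 5O, whereas miR-221 was highest in 8R. miR-222 was most like miR-342-3p (r = 0.89), miR-23b (r = 0.86) and miR-5099 (r = 0.85). With 210 miRNAs and 6 libraries, these coefficients only rank the rows.

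A list of 18 miRNAs described in endothelial cells or vessel growth gave a further scale for the members, and all 18 were listed. miR-126-5p had a higher median than 16 of them, with miR-378 at 54555 and miR-27b at 30616 above it. miR-126-3p exceeded 14 of the 18, and miR-10b at 5950 and miR-10a at 4298 lay between the 2 strands of miR-126. miR-221 exceeded 7 of the 18, with miR-23b at 335 next above and the hypoxia-induced miR-210 at 82.3 next below. miR-222 exceeded 5, among them miR-17 at 19.7 and miR-20a at 11.2 from the miR-17 cluster. miR-92a, also among the 18, was at 1676. The most variable of the 18 were miR-10a, which ranged 6.92-fold between libraries, and miR-10b, which ranged 6.82-fold. The median SD of the list was 0.46, and 16 of the 18 were more variable than miR-221.

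**Figure D5:**
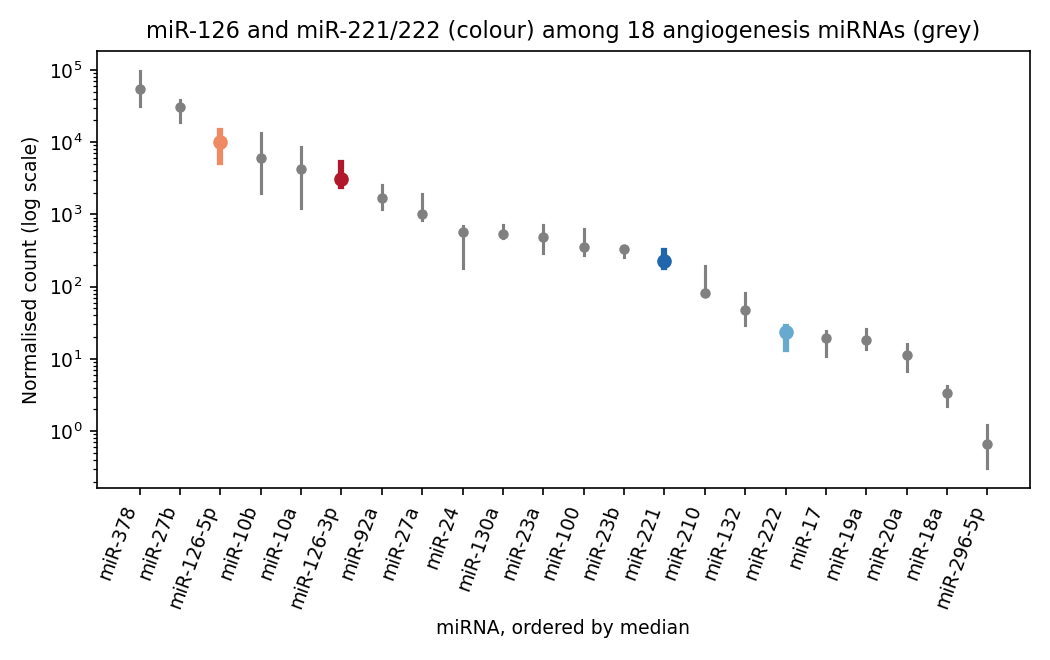
Median (point) and range over 6 libraries (line) of the normalised count (log axis) for the 4 members, in colour, and the 18 angiogenesis miRNAs, in grey, ordered by median. The 2 strands of miR-126 stand near the top, miR-221 in the middle and miR-222, at 23.5, in the lower part.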

How the data were processed

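The authors deposited a single table of miRNA signal values, which are read counts divided by a factor per library. From the values, each column's upper quartile over the 440 rows is 100. The submitters' processing notes name DESeq, without a role or version. Not given in the sources used here were the aligner, build, miRBase release and row filter. Libraries were made from total RNA, extracted with Trizol, with an Illumina small RNA kit, per the labels' protocols. Ligation can favour some small RNAs, so levels of different miRNAs compare reads, not molecules.

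Ranks, ratios, SDs and correlations were computed in Python 3.11.15 with pandas 2.3.3, numpy 2.4.6 and scipy 1.17.1, on log2(value + 1) where stated. Read numbers were recovered from the step between values, a procedure tested on simulated data. Shares have exact (Clopper-Pearson) 95% intervals and counts exact Poisson ones. Both cover counting error only, since the reads carry no molecular identifiers. No column was assigned to a group. The 4 members and the lists were chosen with earlier results of these data known. Other miRNAs were named by list, by rank next to a member, by shared seed, or as the 3 most alike. The minimum of 10 for strand pairs and the use of read numbers were set after the values were seen.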

Additional observations from a re-analysis of the deposited data

Results flagged for a closer look

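Over the 12 levels, ranks and ratios examined, 1 value was far from the others. The ratio of miR-221 to miR-222 was 22.8 in library 8R, and the gap to the nearest of the other libraries was 0.775 of the whole range, above the 95% limit of Dixon's test for 6 libraries. At that limit chance alone gives about 1 flag in every 20 items examined, so 1 flag among 12 items is not rare. The items are not independent, since the ranks and ratios come from the same values as the levels. The count of flags therefore cannot decide whether this value arose by chance. In that library miR-221 was the highest of the 6, at 307 normalised counts from 8218 reads, and miR-222 the lowest, at 13.5 from 360 reads. The ratio mixes infarcted and sham hearts that are not marked, and the cause was not tested.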

How the results depend on the processing

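Of 182 recomputed values, 157 kept their direction or stayed within the spread, 17 moved and 8 changed sign. All 8 changes of sign were among the correlations. A correlation that kept its sign was counted as kept even where its size changed much. The total therefore does not measure how stable the correlations were. With each library scaled to 1000000 over the listed miRNAs, the medians were 5285 for miR-126-3p, 13989 for miR-126-5p, 344 for miR-221 and 32.2 for miR-222, a change of unit, and the SD was 0.20 for miR-126-5p, 0.35 for miR-221 and 0.53 for miR-222. On that scale r was -0.13 for miR-126-5p with miR-221 and 0.30 for miR-221 with miR-222, both of opposite sign. Median-of-ratios scaling, chosen after the data were seen, gave an r of -0.0048 for miR-126-5p with miR-222. Among names without an asterisk, the median rank was 75.5 for miR-221 and 143.5 for miR-222, since fewer rows are ranked. Leaving out each library in turn gave r between -0.23 and 0.16 for the 2 strands of miR-126, -0.16 and 0.62 for miR-126-3p with miR-221, -0.99 and -0.55 for miR-126-3p with miR-222, -0.20 and 0.63 for miR-126-5p with miR-221, -0.12 and 0.68 for miR-126-5p with miR-222, and -0.75 and 0.65 for miR-221 with miR-222. The last was 0.65 without 8R. Without 11R, the SD of miR-126-5p was 0.24. The median ratio of the miR-126 strands lay between 0.265 and 0.478, and that of miR-221 to miR-222 between 9.50 and 9.97. With all 6 libraries no setting brought a pair past an adjusted p of 0.05, and the smallest was 0.0917, for miR-126-3p with miR-222 after median-of-ratios scaling. With 5 libraries a single pair can reach no less than an adjusted p of 0.05, so leaving out a library says nothing about the call. For the 2 strands of miR-126, r was -0.70 on the scale of 1000000 and -0.40 with median-of-ratios scaling. Of the 3 most alike miRNAs, between 0 and 3 remained per member and setting. The 0 was for miR-126-3p with a median minimum of 100. Its 3 most alike miRNAs have medians below 100, so that setting had to remove them. It also had to remove some of those of miR-221 and miR-222. No paired analysis was possible because no column has a replicate number or a group.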

Other observations

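Across the 440 miRNAs, the correlation of log2(value + 1) between 2 libraries lay between 0.940 and 0.994. The closest libraries to 12LR were 7LR (r = 0.986) and 8R (r = 0.974), and 7LR and 8R had an r of 0.991. The closest to 2L were 5O (r = 0.994) and 11R (r = 0.983), and 5O and 11R had an r of 0.974. Which of them are infarcted or sham hearts was not worked out. The strand ratio of miR-126 was nearly equal in 7LR and 8R, at 0.478 and 0.493, and in 2L and 5O, at 0.265 and 0.253, while 12LR, at 0.185, and 11R, at 0.692, lay at the ends of the range. A relation between likeness over the table and the strand ratio was not tested.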
